A study of Mus musculus with 3 samples.

Results

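The 10 genes described here encode proteins of the acute-phase response and of iron handling: Saa1, Saa3, Lcn2, Ptx3, Hp, Orm1, Serpina3c, Serpina3n, Cp and Steap4. They were chosen by name, and were read from every non-control probe that carries the name. All 10 were found, at 15 probes, among 37325 genes read on the arrays. Each fraction of mouse epididymal fat, a visceral depot, was measured on 1 Agilent 1-colour array. The fat came from male C57/BL mice of 20 weeks, with no transgene, treatment or diet in the labels, which do not say whether animals were pooled. After collagenase digestion, a spin at 9 g for 1 s (the force in the sample labels) left the stromal vascular cells (SVC) in the lower phase. A spin of the floating cells at 226 g for 3 min then gave a sediment, the small proliferative adipocytes (SPA), and a floating layer, the mature adipocytes (titled MA in the labels and called mature white adipocytes, MWA, here). SVC and SPA were grown in DMEM to 90% confluence before RNA was taken, and no culture is described for MWA, so culture and cell type cannot be told apart between MWA and the cultured fractions. Titles also give SVC and SPA a day in common and MWA another, so day and fraction cannot be told apart in the same comparisons.

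In an acute-phase response, cytokines such as those encoded by Il6 and Il1b act through STAT, C/EBP and NF-kB transcription factors to change what the liver and other tissues secrete. Many of the induced proteins keep iron, copper or haem from microbes or limit tissue damage by proteases and oxidants. Adipose tissue is a known extrahepatic source of several of them. Of the 10 proteins, Steap4 is a membrane protein and the rest are secreted, although Cp also has a membrane-anchored form.

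No difference below has a replicate check, because each fraction has 1 array, and no test or p-value is given. Levels are log2 of the processed signal relative to the 75th percentile of the same array, so a level of 0 is the signal of that percentile. The error that the scanner software assigns to single spots was 10% to 15.3% over the 41 of 45 probe values of these genes that were well above background. Probes spotted 10 times per array had a median log2 SD of 0.04 on the SVC array, 0.04 on the SPA array and 0.05 on the MWA array, and both errors leave out the spread between animals and preparations. Each array holds 59305 non-control spots, of which 58.6% to 61.4% were well above background and 0 were saturated. Well above background were 8 of the 10 genes in SVC and 10 in each of SPA and MWA. A level of one gene cannot be set against that of another, because probes differ in brightness, so each gene is compared with itself across the 3 fractions.

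Probes for 4 of the genes are shown because they carry the contrasts described below: the largest fall of the set from SPA to MWA (Saa3), a fall seen at both of its probes (Lcn2), a probe that the array assigns to a pair of paralogs (Orm1), and a rise seen at all of its probes (Cp). Each is a 60-base probe, printed 5′ to 3′ in the sense of the transcript, with the position that the array annotation gives in mm9. The Saa3 probe lies at chr7:53967559-53967618 on the minus strand, the Lcn2 probe, the dimmer of its pair, at chr2:32241037-32241281 on the minus strand, the Orm1 probe at chr4:63007395-63009038 on the plus strand and the Cp probe at chr3:19889071-19889130 on the plus strand. The Lcn2 and Orm1 probes span 245 and 1644 genome bases, more than their own length, as a probe across a splice junction does. Exon and UTR positions of the other probes were not analysed here.
Saa3 probe: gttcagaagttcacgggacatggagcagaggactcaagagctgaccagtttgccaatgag
Lcn2 probe: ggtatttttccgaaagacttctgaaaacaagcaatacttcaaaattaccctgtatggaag
Orm1 probe: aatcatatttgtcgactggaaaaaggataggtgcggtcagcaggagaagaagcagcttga
Cp probe: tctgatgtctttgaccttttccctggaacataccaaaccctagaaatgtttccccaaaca

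The promoters of 6 genes are shown so that relatives that moved in opposite or in the same direction can be read side by side. They are the 250 bases before the start of the RefSeq transcript (GRCm38.p6), in the direction of the gene, and capitals mark matches to the C/EBP-type motif TTGCNNAA or its reverse complement TTNNGCAA. Saa1 lies at chr7:46742981-46743230 (minus strand), Saa2 at chr7:46751583-46751832 (plus), Saa3 at chr7:46715677-46715926 (minus), Steap4 at chr5:7960222-7960471 (plus), Serpina3c at chr12:104153873-104154122 (minus) and Serpina3n at chr12:104406458-104406707 (plus).
Saa1 promoter: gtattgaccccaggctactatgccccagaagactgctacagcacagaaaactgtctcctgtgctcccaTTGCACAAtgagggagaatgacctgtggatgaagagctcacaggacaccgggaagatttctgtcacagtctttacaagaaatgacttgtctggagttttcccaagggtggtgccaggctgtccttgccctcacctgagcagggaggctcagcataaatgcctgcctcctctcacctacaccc
Saa2 promoter: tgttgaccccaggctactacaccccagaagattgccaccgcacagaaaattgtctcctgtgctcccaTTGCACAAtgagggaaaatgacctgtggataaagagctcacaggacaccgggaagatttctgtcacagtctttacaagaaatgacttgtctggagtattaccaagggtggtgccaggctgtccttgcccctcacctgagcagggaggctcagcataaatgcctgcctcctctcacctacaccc
Saa3 promoter: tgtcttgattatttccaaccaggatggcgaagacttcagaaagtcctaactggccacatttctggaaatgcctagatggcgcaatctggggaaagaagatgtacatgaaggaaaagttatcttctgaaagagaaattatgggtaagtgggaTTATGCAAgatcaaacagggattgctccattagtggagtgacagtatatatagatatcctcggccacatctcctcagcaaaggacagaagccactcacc
Steap4 promoter: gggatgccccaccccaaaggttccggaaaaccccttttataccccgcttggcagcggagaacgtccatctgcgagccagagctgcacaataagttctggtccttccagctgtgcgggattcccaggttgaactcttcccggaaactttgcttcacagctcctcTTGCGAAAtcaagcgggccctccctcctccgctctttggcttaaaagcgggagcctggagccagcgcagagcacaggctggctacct
Serpina3c promoter: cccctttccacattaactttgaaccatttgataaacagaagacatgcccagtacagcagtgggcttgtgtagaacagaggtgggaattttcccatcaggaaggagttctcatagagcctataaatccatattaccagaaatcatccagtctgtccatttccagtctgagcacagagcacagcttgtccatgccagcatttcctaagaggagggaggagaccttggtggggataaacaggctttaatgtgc
Serpina3n promoter: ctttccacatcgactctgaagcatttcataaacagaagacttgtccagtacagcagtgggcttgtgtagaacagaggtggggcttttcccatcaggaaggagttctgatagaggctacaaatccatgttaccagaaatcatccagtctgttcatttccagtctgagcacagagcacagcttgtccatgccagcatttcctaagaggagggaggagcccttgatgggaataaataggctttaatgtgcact

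Between the cultured fractions 7 of the 10 genes differed by less than 2-fold. Staying under 2-fold was common among all genes too, since 3.89% of the 22809 genes read rose 2-fold or more from SVC to SPA and 3.24% fell as far. Against MWA the 10 genes divided into a group that was lower there and a larger group that was higher. At 5-fold, with bounds in place of dim signals, 0 of the 10 genes were higher in SPA than in SVC, where 0.320% of the 22809 genes read were, and 0 were lower, where 0.351% were, although Orm1 and Serpina3c have only lower bounds there. Their plain log2 ratios, taken from SVC signals not well above background, were 2.50 and 2.46, past 5-fold. In MWA over SPA 6 were at least 5-fold higher (Hp, Orm1, Serpina3c, Serpina3n, Cp and Steap4), beside 5.47% of 24102 genes, and 2 were at least 5-fold lower (Saa1 and Saa3), beside 3.97%. In MWA over SVC the same 6 were higher, beside 5.72% of 23597 genes, and Saa1, Saa3 and Lcn2 were lower, beside 3.96%. The comparisons share arrays, so they are not independent of each other. At the lower bar of 2-fold the same 6 were higher in MWA than in SPA (15.7% of all genes) and than in SVC (17.2%). Lcn2 joined Saa1 and Saa3 among those lower than in SPA, 3 genes in all (18.0% of all genes), and Ptx3 made it 4 against SVC (18.0%). Over members with a measured ratio, the median log2 ratio was -0.15 for SPA over SVC (8 genes), 2.80 for MWA over SPA (10 genes) and 0.83 for MWA over SVC (8 genes), against 0.05, -0.08 and -0.07 over all genes. Counting Orm1 and Serpina3c at their bounds gave medians over 10 genes of -0.10 from SVC to SPA and 2.99 from SVC to MWA.

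**Figure D1:**
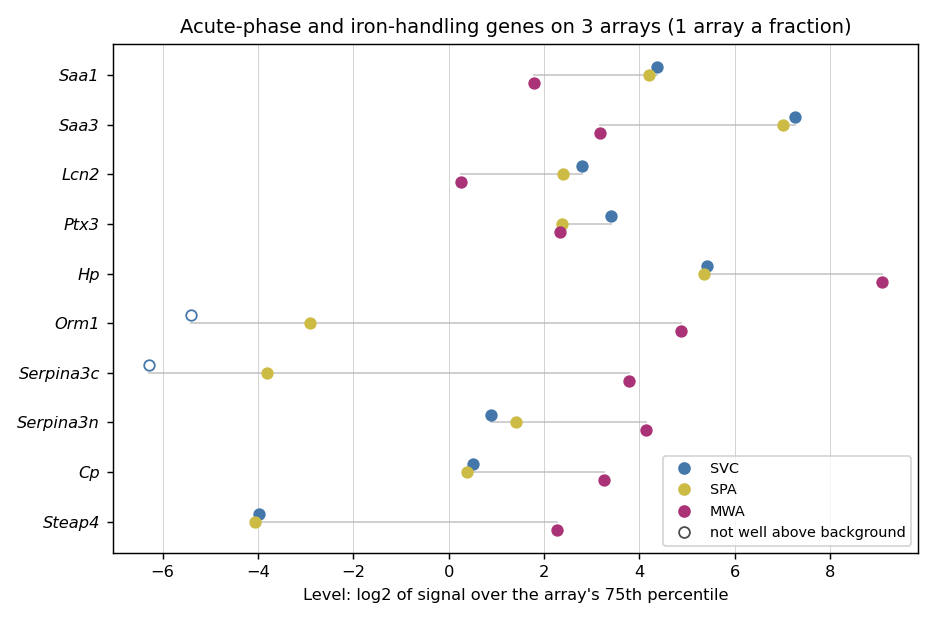
Level of each of the 10 genes in SVC, SPA and MWA, as log2 of the processed signal over the 75th percentile of the array (1 array a fraction, so no error bars); open circles are not well above background. SVC and SPA lie close together for Saa1, Saa3, Lcn2, Hp, Cp and Steap4, and MWA lies to the left for Saa1, Saa3 and Lcn2 and to the right for 6 genes.

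The serum amyloid A genes of the set were lower in MWA. Saa1 encodes an apolipoprotein of high-density lipoprotein that is a main plasma acute-phase protein of the mouse, and its probe lies at chr7:53996070-53996129 (mm9, minus strand). Saa1 had a level of 4.38 in SVC and 4.21 in SPA, against 1.78 in MWA. The cultured fractions differed by 1.13-fold, close to the error of single spots, and MWA was 5.37-fold lower than SPA and 6.05-fold lower than SVC. Saa3 encodes the serum amyloid A made outside the liver, by macrophages and adipocytes among others. The SVC array read Saa3 at 7.26, the SPA array at 7.01 and the MWA array at 3.17. SPA was again next to SVC, 1.19-fold lower, whereas MWA stood apart, 14.3-fold lower than SPA and with a log2 ratio of -4.09 over SVC.

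Their relative Saa2, whose protein is the other main plasma form, ran the opposite way. Saa2 went from -3.95 in SVC through -2.25 in SPA to 1.46 in MWA, so that SPA was 3.26-fold higher than SVC and MWA 13.1-fold higher than SPA. Saa4, the constitutively made member, was well above background only in MWA, at -4.57, and MWA was at least 1.48-fold higher than SPA. Within this family, then, Saa1 and Saa3 were lowest in MWA and Saa2 was highest there. The promoters printed above were 94.8% identical between Saa1 and Saa2, over an alignment of 251 bases, and 44.7% identical between Saa1 and Saa3. Those of Saa3 and Steap4, genes of different families, were also 44.7% identical. Saa1 and Saa2 have the match TTGCACAA, at positions -182 to -175 and -183 to -176 from the start, and Saa3 has TTATGCAA at -99 to -92. The transcripts of Saa1 and Saa2 are much alike, and how far each probe reads the other gene was not tested.

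Lcn2, a lipocalin that binds bacterial siderophores and so withholds iron, was also lower in MWA. At its brighter probe (chr2:32240199-32240258, mm9, minus strand) levels of 2.80 in SVC and 2.40 in SPA stood against 0.26 in MWA. SPA was 1.33-fold lower than SVC, and MWA was 4.40-fold lower than SPA and 5.83-fold lower than SVC, so Lcn2 passed 5-fold only against SVC. The probe printed above read 0.28, -0.14 and -2.44, with MWA 4.94-fold lower than SPA and 6.61-fold lower than SVC. The order of the fractions was the same at both probes. Slc22a17, which encodes a receptor for the Lcn2 protein, had the opposite order between SPA and MWA, with a level of -0.88 in SVC, -1.13 in SPA and 0.72 in MWA.

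Ptx3, a long pentraxin that opsonises microbes and binds complement, had a pattern of its own in the set. It was at 3.41 in SVC and, lower, at 2.39 in SPA and 2.34 in MWA, read at chr3:66029245-66029304 (mm9, plus strand). SVC was 2.04-fold higher than SPA and 2.11-fold higher than MWA, while SPA and MWA differed by 1.04-fold, less than the error of single spots. It was the only gene of the 10 at least 2-fold lower in SPA than in SVC, where 3.24% of all genes were. Under the normexp correction its log2 ratio was -0.99, under 2-fold. The local background of its SPA spot was marked as outlying, and without that spot its SPA level has no value.

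Other cell types were read through marker lists, beside these 4 genes. All 10 macrophage markers were well above background on each array, with a summed level (signals over the 75th percentile, added) of 562 in SVC, 606 in SPA and 217 in MWA. All 9 mesothelial markers on the arrays were well above background, with sums of 72.2, 17.9 and 27.2. Of 10 neutrophil markers 8, 7 and 9 were well above background, with sums of 63.0, 72.3 and 82.3. The neutrophil sum rests mostly on Csf3r (5.87, 5.94 and 6.23), and S100a8 rose from SVC to SPA where S100a9 fell. The macrophage sum was lowest in MWA, as Saa1, Saa3 and Lcn2 were, but it rests mostly on Lyz2 (8.74, 8.81 and 6.94), and the median marker was lowest in SPA (3.55, 2.69 and 3.09). C1qa, C1qb and C1qc ran against the sum, 11.3-fold to 12.5-fold higher in MWA than SPA. The mesothelial sum and median were highest in SVC, as Ptx3 was, but Msln, Upk3b, Krt19 and Gpm6a were highest in MWA. Msln, for one, stood at 2.96 in SVC, 0.38 in SPA and 3.36 in MWA. Their part in the levels of Saa1, Saa3, Lcn2 and Ptx3 was not tested, and in these bulk samples fewer cells of a type and less RNA per cell cannot be told apart.

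Of the genes higher in MWA, Hp was bright on every array. Hp encodes haptoglobin, which captures free haemoglobin, and its probe lies at chr8:112099045-112099104 (mm9, minus strand). Levels of 5.42 in SVC and 5.36 in SPA stood against 9.09 in MWA. The cultured fractions differed by 1.05-fold, within the error of single spots, and MWA was 13.3-fold higher than SPA and 12.7-fold higher than SVC. The local background of its MWA spot was marked as outlying, and leaving out such spots leaves Hp with no value against MWA. Hpx, which encodes the haem-binding hemopexin, did not share the rise, with levels of -3.35, -2.62 and -4.10. Cd163, the haptoglobin-haemoglobin receptor of macrophages, was at -4.39 in SVC, not well above background in SPA and at 1.70 in MWA, which put MWA at least 114-fold above SPA.

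Orm1 encodes orosomucoid, an acid glycoprotein that carries drugs and lipids in plasma, and it showed a rise at each step. In SVC it was not well above background, SPA stood at -2.91 and MWA at 4.87. SPA was at least 4.13-fold higher than SVC, MWA was 220-fold higher than SPA and at least 907-fold higher than SVC. The array assigns the Orm1 probe to Orm1 and Orm2, so the signal can come from either gene. The separate probe of Orm2 read -4.55 in SPA and 3.40 in MWA, 248-fold higher in MWA, and was not well above background in SVC. Orm3 was well above background only in MWA, at 0.31, at least 43.6-fold higher than SPA. Each of the 3 probes read highest in MWA, and Orm1 has no probe that reads it apart from Orm2.

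Serpina3c and Serpina3n belong to the mouse cluster of antichymotrypsin-like serine protease inhibitors. Serpina3c (chr12:105385352-105385411, mm9, minus strand) stood at -3.82 in SPA and at 3.79 in MWA, and in SVC it was not well above background. SPA was at least 2.20-fold higher than SVC, and MWA was 195-fold higher than SPA and at least 428-fold higher than SVC. Orm1 and Serpina3c were the only genes of the 10 that passed 2-fold upward from SVC to SPA, as 3.89% of all genes did. Neither passed under the normexp background correction, with log2 ratios of 0.76 for Orm1 and 0.36 for Serpina3c. That correction adds an offset of 50 to every signal, beside SPA signals of 58.6 for Orm1 and 31.2 for Serpina3c. The offset by itself shrinks such ratios, so the correction cannot decide whether they pass 2-fold. Serpina3n (chr12:105651918-105651977, mm9, plus strand) was measured in every fraction, at 0.89 in SVC, 1.41 in SPA and 4.13 in MWA. SPA was 1.43-fold higher than SVC and MWA 6.61-fold higher than SPA, so the order of the fractions was that of Serpina3c, with a smaller step from SPA to MWA. Under normexp its log2 ratio of SPA over SVC was 0.46, not smaller than that of Serpina3c. The promoters of Serpina3c and Serpina3n were 90.5% identical over 253 aligned bases.

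The other 9 listed genes of the Serpina3 cluster were all well above background in MWA, where 5 exceeded SPA by 5-fold or more (5.47% of all genes did) while 0 fell short of it by as much (3.97%). Serpina3m rose 68.9-fold, from -1.30 to 4.81, and Serpina3k rose at least 71.0-fold from an SPA signal not well above background. Serpina3g was lowest in SPA, with levels of 0.54, -2.02 and 1.51, which made it 5.88-fold lower in SPA than in SVC. Serpina3b stayed within 1.39-fold between SPA and MWA. Over the 7 of the 9 genes measured in both, MWA over SPA had a median log2 ratio of 3.25, against -0.08 over all genes. The rise was smaller against SVC. Over the same 7 the median was 0.98 for MWA over SVC, against -0.07 over all genes, and -0.49 for SPA over SVC, against 0.05. Members of this cluster are close paralogs, and the probes of Serpina3c and Serpina3n were compared with other probes but not with the transcripts of their relatives, so shared signal was not tested.

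**Figure D2:**
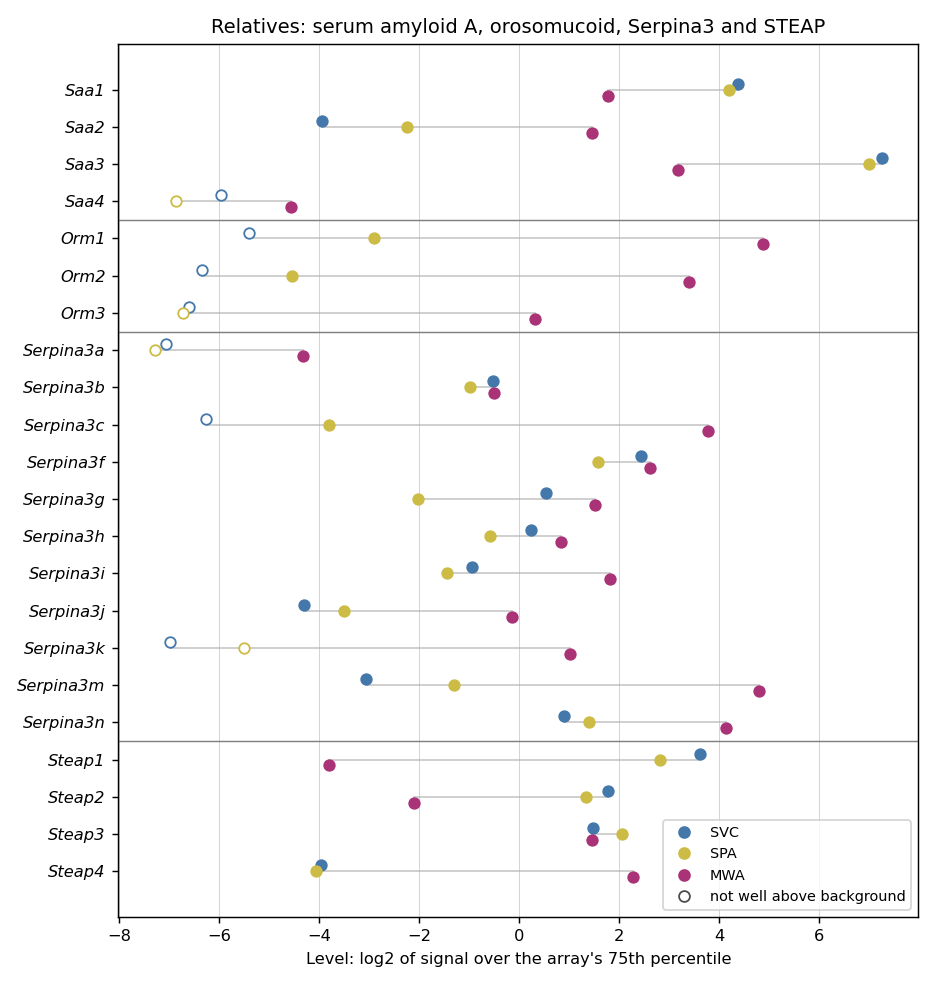
Levels (log2 of the processed signal over the 75th percentile of the array) of the serum amyloid A, orosomucoid, Serpina3 and STEAP genes in SVC, SPA and MWA, 1 array each; open circles are not well above background. Saa1 and Saa3 are lowest in MWA and Saa2 is highest there, and Steap4 is high in MWA where Steap1 and Steap2 are low.

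Cp encodes ceruloplasmin, a copper-carrying ferroxidase that loads iron onto transferrin. The brightest of its 5 probes read 0.51 in SVC and 0.39 in SPA, against 3.26 in MWA. SVC and SPA differed by 1.09-fold, and MWA was 7.29-fold higher than SPA and 6.70-fold higher than SVC. All of its probes gave the same direction, with MWA 5.86-fold to 7.69-fold higher than SPA at the 4 probes measured on both arrays and at least 6.95-fold higher at the dimmest. Between SVC and SPA its probes disagreed, with SPA lower at 3 probes and 1.34-fold higher at the probe at chr3:19909387-19909446 (mm9). Heph, a membrane ferroxidase related to Cp, had levels of 2.13, 3.85 and 2.91, with SPA 3.31-fold higher than SVC.

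Steap4, a membrane metalloreductase that reduces iron and copper before uptake, was low in both cultured fractions. It was at -3.97 in SVC and at -4.06 in SPA, and it reached 2.27 in MWA, at chr5:7981239-7981298 (mm9, plus strand). The cultured fractions differed by 1.06-fold, where the error of the spots was 15.3% and 14.5%, and MWA was 80.2-fold higher than SPA and 75.6-fold higher than SVC. Of its relatives, Steap1 and Steap2 ran the other way. Steap1 was at 3.62 in SVC, 2.81 in SPA and -3.81 in MWA, 98.1-fold lower in MWA than in SPA, and Steap2 was at 1.78, 1.34 and -2.10, 10.8-fold lower. Steap3, the ferrireductase of the erythroid transferrin cycle, was at 1.47, 2.05 and 1.46, with MWA 1.51-fold below SPA and 1.01-fold from SVC.

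**Figure D3:**
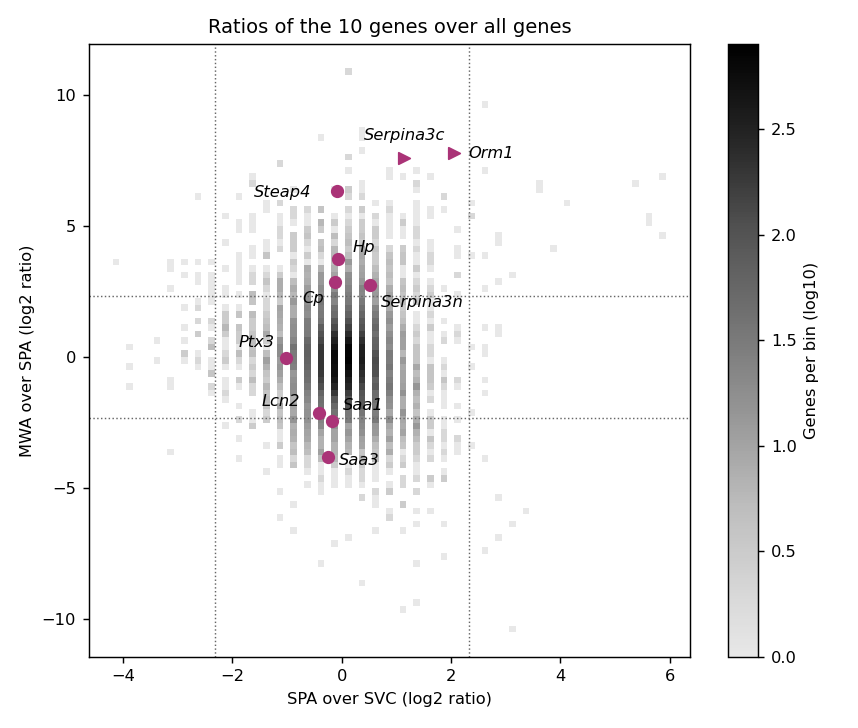
Log2 ratio of MWA over SPA against that of SPA over SVC for the 10 genes, over the 19971 genes measured on all 3 arrays (grey squares, the number of genes per bin of 0.25 by 0.25 on a log10 colour scale); triangles are lower bounds on the horizontal axis and dotted lines mark 5-fold. The 10 genes spread from -3.83 to 7.78 on the vertical axis. None of the 10 is plotted beyond the 5-fold lines on the horizontal axis, where Orm1 and Serpina3c stand at their lower bounds.

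The fractions were checked against cell type markers, beside the 6 genes that were higher in MWA. Adipocyte markers (7 of 10 well above background in SVC and 10 of 10 in SPA and in MWA) had summed levels of 6.29, 54.9 and 2389. That order is the order of Orm1, Serpina3c and Serpina3n, and Hp, Cp and Steap4 did not share its step from SVC to SPA. The step was not shared by every adipocyte marker either. From SVC to SPA 8 of the 10 markers rose 2-fold or more, 3 of the 10 being read as lower bounds, but Lep rose only 1.19-fold. Cidea did not rise there, with levels of -4.03 in SVC, -4.10 in SPA and 1.27 in MWA. Lists of other cells were also highest in MWA: endothelial markers (10 of 10 on each array) summed to 5.18, 9.04 and 142, and progenitor and fibroblast markers (10 of 10 on each array) to 278, 135 and 441. In MWA the latter sum rests mostly on Dcn and Col3a1. Col1a1 was 2.77-fold lower in MWA than in SVC, and Pdgfra and Pdgfrb ran against the sum, 4.14-fold and 2.68-fold lower in MWA than SPA. Erythrocyte markers (4, 4 and 7 of 10) summed to 0.628, 0.683 and 680. Lymphocyte markers (5, 7 and 8 of 10) summed to 9.88, 10.6 and 12.8. Markers of several cell types beside adipocytes were thus read on the MWA array, and their part in the levels of Hp, Orm1, Serpina3c, Serpina3n, Cp and Steap4 was not tested.

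Since the liver is the main source of most of these proteins, hepatocyte markers were read as well. Of 10 hepatocyte markers 3 (SVC), 4 (SPA) and 5 (MWA) were well above background, with sums of 0.355, 0.605 and 73.1. Serpina1a, at 6.16 in MWA, made most of that sum, and Alb was at 0.20 in MWA and not well above background in SVC or SPA. Ttr, Apoa1, Fgb, Cyp3a11 and F2 were not well above background on any array, and the remaining markers, Apoc3, Ahsg and Tat, stood at -2.89, -3.36 and -2.39 in MWA. The part of hepatocyte RNA in these levels was not tested. Of 10 genes of the epididymal epithelium, which lies next to this fat and expresses several lipocalins, 1 was well above background on each array.

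Other acute-phase genes were given by a list of 28, of which 23 were well above background in SPA or MWA. From SPA to MWA 11 genes went up 5-fold or more (5.47% of all genes did) and 0 went down as far (3.97%), with a median log2 ratio of 1.68 over the 19 measured on both arrays. Besides Saa2, Orm2 and Orm3 these were Agt, which encodes angiotensinogen (29.4-fold), Cfb, a complement factor (8.92-fold), Lbp, which binds lipopolysaccharide (5.30-fold), and 5 Serpina1 genes, which encode antitrypsins (67.8-fold for Serpina1b, up to at least 434-fold for Serpina1d). The Serpina1 genes are near-identical copies whose probes can share signal. The pattern was not general to acute-phase proteins: Crp, Apcs, A2m, Fgb and Fgg were not well above background in any fraction, C3, the central complement protein, was 3.21-fold above SPA in MWA, and Cd14, a receptor for lipopolysaccharide, was 1.50-fold below it. In SPA over SVC 3 genes of the list were at least 5-fold higher (Itih4, Serpina1a and Serpina1c), beside 0.320% of all genes, and 0 lower, beside 0.351%. The probes of Itih4 disagree, since SPA was 5.90-fold higher at the probe used and 1.23-fold higher at the other.

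Iron genes moved in both directions. Of a list of 35, 32 were well above background in SPA or MWA, and 2 were at least 5-fold higher in MWA, a share near the 5.47% of all genes, while 6 were at least 5-fold lower (3.97% of all genes), with a median log2 ratio of -0.69 over the 29 measured on both arrays and -0.60 with 3 bounds added. Trf, which encodes the iron carrier transferrin, was at 4.07 in SVC, 4.17 in SPA and 8.64 in MWA, 22.1-fold higher in MWA than in SPA, an order close to that of Hp. The lower genes besides Steap1 and Steap2 were Slc40a1, the iron exporter (12.0-fold), Hmox1, which breaks down haem (8.94-fold), Slc11a1, a phagosomal metal transporter (8.35-fold), and Bdh2, an enzyme linked to the mammalian siderophore (6.49-fold). Slc40a1 and Hmox1 were highest in SPA, 4.57-fold and 4.42-fold above SVC. The fall of Hmox1 was smaller at its other, dimmer probe, from -1.23 in SPA to -2.23 in MWA. Tfrc, the transferrin receptor, was 4.02-fold lower in MWA than in SPA, and the ferritin genes Fth1 and Ftl1 were 1.80-fold and 1.52-fold lower. The probes of Ftl1 disagree in size, since MWA was 4.87-fold lower than SPA at its other, dimmer probe. Hamp, the gene of the iron hormone hepcidin, was not well above background in any fraction.

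Genes of the cytokine pathway that induces acute-phase proteins moved in both directions, with more of them higher in MWA. Of 32 genes, all well above background in SPA or MWA, 7 went up 5-fold or more from SPA to MWA (5.47% of all genes did) and 2 went down as far, a share near the 3.97% of all genes, with a median log2 ratio of 1.01 over the 30 measured and 1.16 with 2 bounds added. Il6 was at 0.97 in SVC, -0.85 in SPA and 4.37 in MWA, 37.4-fold higher in MWA than in SPA. Socs3, a feedback inhibitor of the receptor pathway, was 26.7-fold higher, Nfkbiz, an NF-kB cofactor needed for Lcn2 induction in macrophages, 19.3-fold, and Nfkbia 7.89-fold. Il1b was well above background only in MWA, at least 259-fold higher than SPA. The 2 lower genes were Il11 (23.0-fold) and Il1rn, the receptor antagonist of Il1b (19.6-fold). On the MWA array, where Il6, Il1b and Socs3 were highest, Saa1, Saa3 and Lcn2 were lowest and Hp, Orm1, Serpina3c, Serpina3n, Cp and Steap4 highest. Any link between them was not tested. From SVC to SPA 0 genes of the list went up 5-fold (0.320% of all genes did) and 0 went down as far (0.351%). Beside shares this small, a count of 0 in a list of 32 says little.

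**Figure D4:**
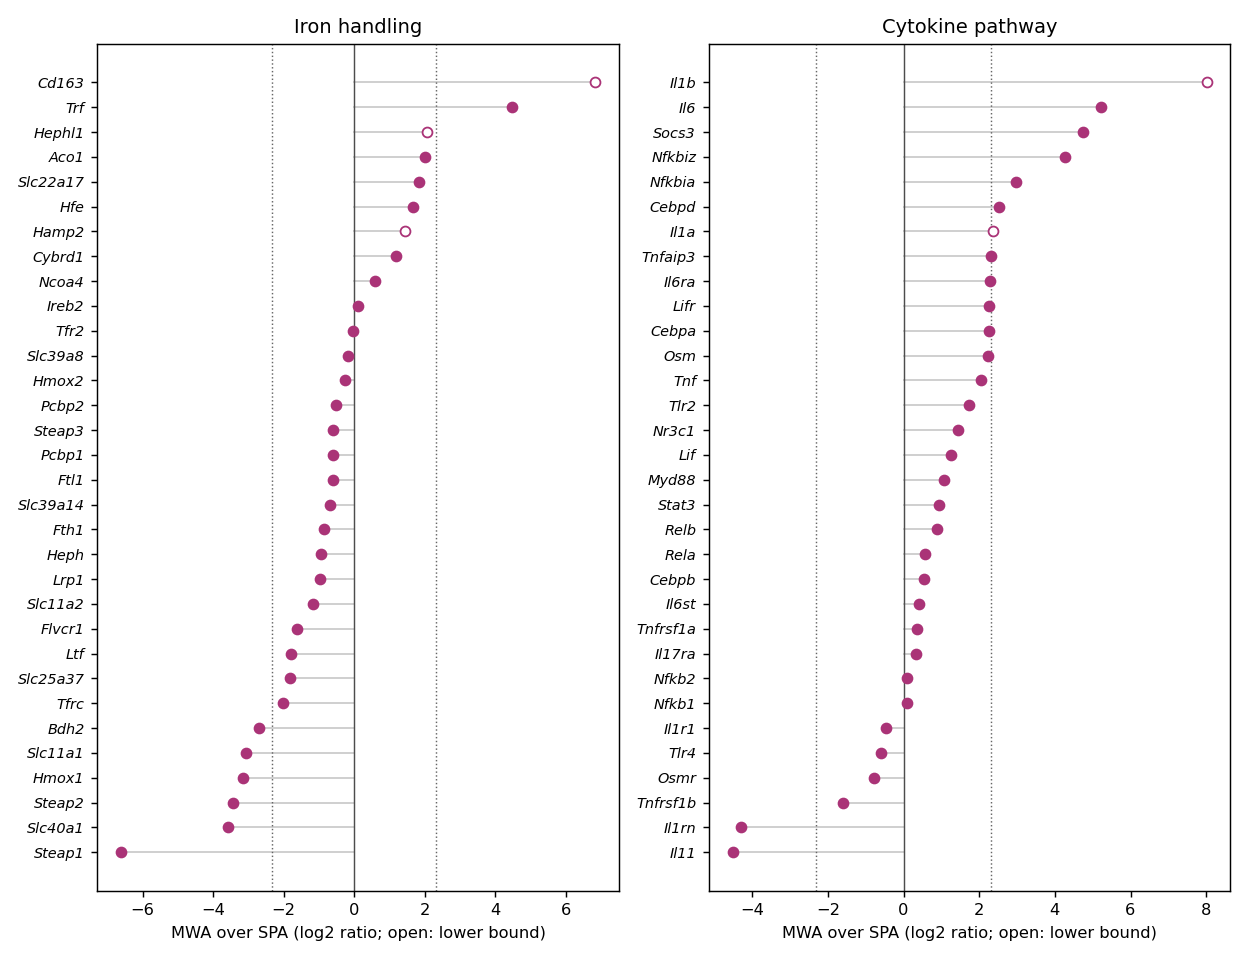
Log2 ratio of MWA over SPA for the iron-handling genes (left) and the cytokine pathway genes (right) that have a ratio, 1 array each; open circles are lower bounds and dotted lines mark 5-fold. Of the iron genes 2 lie beyond the right line and 6 beyond the left, and of the cytokine genes 7 lie beyond the right line and 2 beyond the left.

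Among other secreted lipocalins and pentraxins, SPA or MWA had 10 of the 15 on the arrays well above background, and 2 went up 5-fold or more from SPA to MWA (5.47% of all genes did). They were Rbp4, the retinol carrier that adipocytes secrete (14.6-fold), and Apod (5.72-fold). From SPA to MWA 0 genes of the list fell 5-fold or more (3.97% of all genes did). With 10 genes to read and a share this small, a count of 0 says little. Lcn2 and Ptx3 also stayed short of a 5-fold fall in that comparison.

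The motifs of the inducing factors were searched on both strands of the 250 bases before each start, for the 8 of the 10 genes that the RefSeq table holds (Hp and Orm1 were not among them). TTGCNNAA, the C/EBP-type motif, was found for 6 genes (Cp, Lcn2, Ptx3, Saa1, Saa3 and Steap4), and 9.56% of all 32851 promoter windows hold it. The match of Steap4 is TTGCGAAA at positions -87 to -80. Genes with the match moved both ways: Cp and Steap4 were higher in MWA, and Saa1, Saa3 and Lcn2 were lower. A loose NF-kB-type motif, GGG and CC with any 5 bases between them, was found for 5 genes (Cp, Lcn2, Saa1, Serpina3n and Steap4) and in 45.8% of all windows. TTCNNNGAA, the STAT-type motif, and CTGGGAA, an element of genes that respond to Il6, were each found for Steap4 alone, and 7.02% and 9.10% of all windows hold them. These are matches of letters and not evidence of binding.

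The genes whose profile was closest to that of each member were taken from 15116 named genes well above background on all 3 arrays, by the Euclidean distance between their log2 levels after centring each gene on its own mean. With 3 arrays a profile has few degrees of freedom, so close matches are common: within a distance of 0.2, Saa1 had 66 genes, Lcn2 65, Ptx3 55, Serpina3n 45, Cp 37, Hp 19, Saa3 17 and Steap4 1. Saa1 was closest to Ttc39b, Pole and Eme1, Saa3 to Slc25a13, Cdca5 and Fbxo5, and Lcn2 to Hyou1, Ncaph and Neurl1a. Hp was closest to Gpr160, Col6a2 and Kdm6b, Cp to Gm1987, Gpam and Cers4, Serpina3n to Cnnm2, Gm15420 and Gpt2, and Ptx3 to Marcks, Cd24a and Gpc2. Steap4 was closest to Ptprb, at a distance of 0.19, followed by Mogat1 and Adgrf5. Orm1 and Serpina3c have no such profile, since their level in SVC was not well above background.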

How the data were processed

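RNA of SVC, SPA and MWA from mouse epididymal fat was measured on 1 Agilent array each, 3 arrays on 1 slide and in 1 scan. The authors deposited spot intensities from Agilent Feature Extraction 10.7.3.1 as processed signals, after background subtraction within the array, from Cy3-labelled cRNA made from 50 ng of total RNA. A second deposited table holds the ratio of each processed signal to an array constant, and was used as an alternative. Groups were taken from the sample labels. Control spots and outlier spots were left out, spots of 1 probe were averaged, and the log2 signal at the 75th percentile of the array (signals of 430 for SVC, 439 for SPA and 366 for MWA) was subtracted from each log2 signal. Where a gene has several probes, that of highest mean level was used. Where a probe was not well above background on the dimmer array, the fold is a lower bound against the lowest signal well above background there (13.9 in SVC, 12.5 in SPA and 10.3 in MWA) or the signal of the probe where that was higher. A gene was called at 5-fold, the size of difference that the study looked at, with 2-fold beside it. No statistical test was run, since each group has 1 array, which is what limits the precision.

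Names were updated through accessions in the RefSeq gene table of GRCm38.p6, which changed 0 of the 10 names, and promoters came from the matching RefSeq table. The genes named were the 10 members at every probe, the members of 5 gene lists and 10 cell type marker lists, and the 3 closest profiles per member. The members and lists were chosen with earlier results of these data known, so they are no independent support for any pattern. Values were recomputed with normexp (offset 50), with quantile normalization, with a 75th percentile taken over probes that passed background on every array, and from the deposited ratio. They were also recomputed without the filter on dim probes, without bounds, at the median or the most extreme of a gene's probes, and without spots whose local background was outlying. The code that makes the 5-fold calls was checked on simulated data, and no value given here comes from that check. Python 3.11.15 with numpy 2.4.6, pandas 2.3.3 and matplotlib 3.10.9 was used, and R 4.3.3 with limma 3.58.1 for normexp. Real-time PCR, flow cytometry and imaging of the study were not analysed here.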

Additional observations from a re-analysis of the deposited data

How the results depend on the processing

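With no filter on dim probes, 2 of the 10 genes, Orm1 and Serpina3c, passed 5-fold upward from SVC to SPA (log2 ratios of 2.50 and 2.46) in place of 0, because their SVC signals, not well above background, then enter as measured. The other counts of the 10 genes at 5-fold stayed within 1.5 times of the values given. Without bounds, 4 genes were left higher in MWA than in SVC in place of 6, since Orm1 and Serpina3c then have no ratio, and leaving out spots of outlying local background left 5, without Hp. Of 262 ratios of single genes under the alternatives, 212 moved by less than the spread of repeated spots and 50 by more. Several alternatives cannot move a ratio that is measured on both arrays at a gene's only probe, so these counts do not measure robustness. Under the normexp correction the ratios of genes dim in SPA were smaller, with log2 ratios of MWA over SPA of 4.61 for Steap4, 5.91 for Serpina3c and 6.72 for Orm1. No gene of the 10 then differed 2-fold between SVC and SPA (log2 ratios of 0.76 for Orm1, 0.36 for Serpina3c and -0.99 for Ptx3). The offset of 50 that it adds to every signal by itself shrinks the ratios of dim genes. For Orm1 and Serpina3c it therefore cannot decide whether SVC and SPA differ 2-fold. Ptx3 in MWA over SPA (-0.11 to 0.02) and Steap4 in SPA over SVC (-0.18 to 0.01) had no settled sign. Over all genes, the count that went up 5-fold from SVC to SPA was 73, and 30 under normexp and 287 with no filter, and the count higher in MWA than in SPA was 1318, and 762 and 1761. No paired analysis was possible because each group has 1 array, and for the same reason no array could be left out. Signal over background limits what can be read of Orm1 and Serpina3c in SVC, where only a bound can be given.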
